A study of Rattus norvegicus with 16 samples.

Results

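Livers of unexposed male Sprague-Dawley rats at 21 days of age were compared, within each array, with the common RNA that was hybridised beside them. These are the 4 arrays titled Liver_Control PND21 (group C), of 16 arrays in all. Liver RNA was labelled with Cy5 and the common RNA with Cy3, so each spot gives a ratio of liver to that RNA. The dams of C received corn oil alone, were not cross-fostered, and kept their own pups. In each group 8 pups were taken and the RNA of 2 pups was pooled at random for each array, which makes 4 arrays. The labels do not say which pups were littermates, so p-values measure the spread between these arrays and may be too small. The other 12 arrays hold liver of pups of the same sex, strain and age, whose dams received contaminants in corn oil from gestation day 0 to postnatal day 20. In 0.5M and M this was a mixture of organochlorine pesticides, PCBs and methyl mercury at 0.5 and 1.0 mg/kg/day. In AhR it was a mixture of aryl hydrocarbon receptor agonists, among them dioxins and furans, at 1.8 ng/kg/day in dioxin equivalents. The common RNA is labelled as a universal rat reference made from 14 rat cell lines. It is 1 pool, so its own spread is not part of any test, and as no dyes were swapped, a dye bias of single probes cannot be told apart from a small ratio.

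Hepatocytes make most plasma proteins, detoxify ammonia through the urea cycle, and carry out much of the body's sugar, fat, bile acid and drug metabolism. Before weaning the liver still holds some blood-forming cells and traces of its fetal programme. In rats the livers of adult males and females differ in many P450 enzymes, sulfotransferases and secreted carriers, a difference set by the pattern of growth hormone release from puberty on. The major urinary proteins, encoded by the Mup genes, are pheromone carriers that adult male liver secretes in bulk.

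The common RNA, labelled as a pool of cell lines, was bright at probes of hepatocyte genes. Albumin (Alb, NM_134326), the main plasma protein, had a Cy5 liver signal of 24925.5, 47746.5, 121820 and 68782.2 scanner units on C 1 to C 4. Its Cy3 signal from the common RNA was 117670, 83901.5, 92961.2 and 85303. The common RNA was thus bright at the albumin probe on every array, before normalization brighter than liver on C 1, C 2 and C 4, and over all 16 arrays its signal there lay between 66135 and 117670. Apoa1 (NM_012738), the main protein of high-density lipoprotein, gave 21118.8, 36887.5, 89210.2 and 60273.5 in liver and 59006, 46881.5, 65140.8 and 41357 in the common RNA. Cps1 (NM_017072), the entry enzyme of the urea cycle, gave 472.8, 908.2, 2637 and 1246 in liver and 3865, 2455.2, 3686.5 and 2365.2 in the common RNA. After normalization the log2 ratio of liver to the common RNA was 0.49 ± 0.13 (SD, n = 4) for Alb, 1.03 ± 0.27 for Apoa1 and -0.27 ± 0.19 for Cps1. With median centring in place of the loess fit, which moved the median of all transcripts to -0.42, Alb stood at -0.43, so its direction depends on the scaling. None of the 3 hepatocyte markers reached 4-fold. Below, the common RNA is called the RNA labelled universal reference, or the reference for short, and directions are given relative to it as measured.

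**Figure D1:**
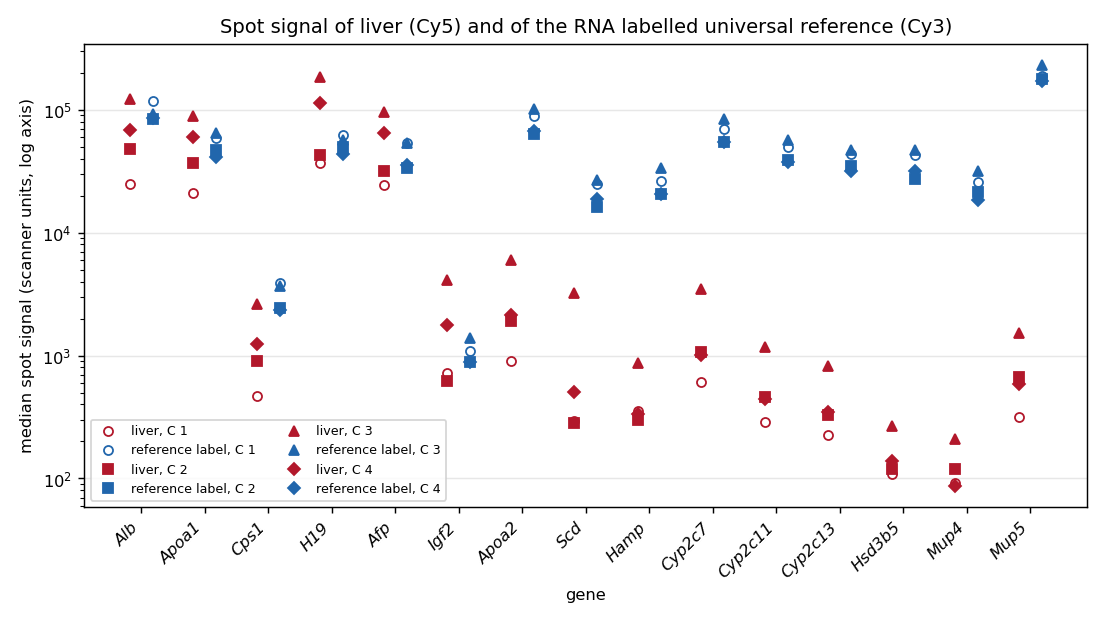
Median spot signal in scanner units, on a log axis, of liver (Cy5, red) and of the RNA labelled universal reference (Cy3, blue) for 15 genes. Each marker is 1 of the 4 C arrays (open circle C 1, square C 2, triangle C 3, diamond C 4). Alb, Apoa1, H19 and Afp were bright in both channels, while the Mup, Cyp2c and Hsd3b5 probes were bright in the reference alone. Brightness can be compared between channels of a probe and not between probes.

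The same held for hepatocyte genes at large. Over 12 lists of hepatocyte functions 289 genes were tested. Of these, 286 stood well above background in the reference on all 4 arrays and 268 in liver. Within 2-fold lay 253 of the 289, against 14540 of all 14913 transcripts tested. Past 2-fold 32 of them were lower and 4 higher in liver, and 11 were at least 4-fold lower. Over all transcripts 2.06% were lower and 0.436% higher past 2-fold. The median log2 ratio of the 289 was -0.26, against -0.01 over all transcripts. Across all probes the log2 signals of liver and of the reference correlated at 0.932, 0.958, 0.982 and 0.977 on C 1 to C 4, a description over probes, which share array and probe sequence. Between pairs of the 16 arrays the reference signal correlated at 0.971 to 0.997. Of 19 neuronal genes on the array 10 stood above background in neither channel on any of the 4 arrays. The filter was passed by 2 of the 19, and by 14913 of 26892 transcripts with a value on all 4 arrays. Over 5 lists of genes that growing cell lines express highly (cell cycle, actin and adhesion, matrix, nucleotide synthesis, amino acid carriers) 112 genes were tested. Past 2-fold 0 of them were lower and 4 were higher in liver, with a median log2 ratio of 0.25. Why the channel labelled as a pool of cell lines carries hepatocyte transcripts was not tested. Those of liver and of any other source in it cannot be told apart.

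Fewer probes stood above background in liver than in the reference on every array. Of 30367 probes, 10049, 11980, 15685 and 13384 stood well above background in liver on C 1 to C 4, against 18691, 14811, 19560 and 16811 in the reference. No spot was marked saturated. Fat transcripts stood out on C 2. Ucp1, the uncoupling protein of brown fat, had log2 ratios of -0.20, 3.33, -0.64 and -0.55, and was well above background in liver on C 2 alone. Fabp4, a fatty acid carrier of fat cells, had -0.12, 1.54, -0.13 and -0.10. The median of the 7 fat markers tested was 0.51 on C 2 and -0.20, -0.50 and -0.55 on C 1, C 3 and C 4. Counts without C 2 are given with the counts below.

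Of 14913 transcripts tested with limma, 14540 lay within 2-fold of the reference, and the median log2 ratio was -0.01. A transcript was called where its Benjamini-Hochberg adjusted p was under 0.05 and its ratio was at least 4-fold, since smaller ratios are open to dye bias. By this rule 114 transcripts were lower in liver (0.764% of those tested) and 0 were higher (0%). Of the 114, 53 had a gene symbol. All 114 lay past 2-fold on each of the 4 arrays, and 20 of them lay at least 32-fold below the reference. By the adjusted p of limma alone, 2913 were lower (19.5%) and 2472 higher (16.6%), most by amounts that are not read here. Past 2-fold, 307 were lower (2.06%) and 65 higher (0.436%). With median centring these became 1595 and 0, so the share lower went from 82.5% to 100%. Without C 2 the calls were 117 lower and 1 higher. Just inside the 4-fold limit stood Ckm at -2.03, and just outside it Acta1 at -1.9995.

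**Figure D2:**
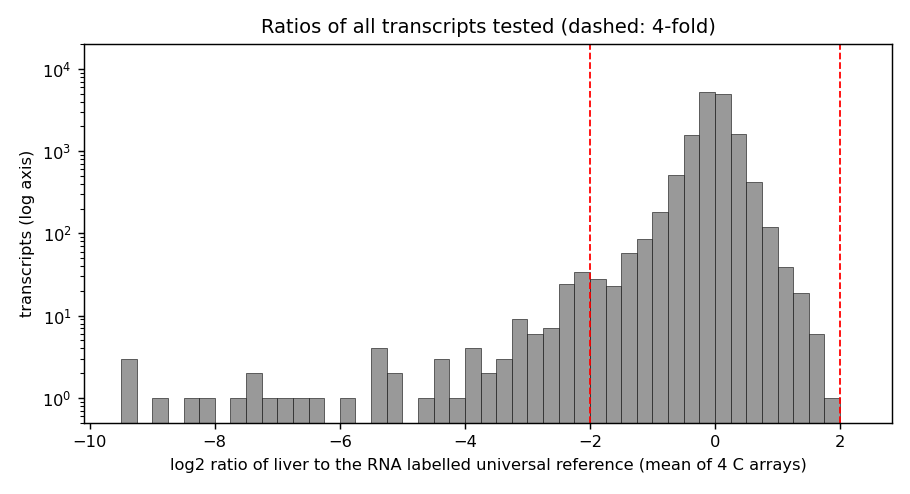
Number of transcripts (log axis) by log2 ratio of liver to the RNA labelled universal reference, mean of the 4 C arrays, for all 14913 transcripts tested. The bulk lies near 0, a tail reaches below -9 on the liver-low side, and no transcript passes the upper 4-fold line.

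Secreted carriers of adult males were among the transcripts lowest in liver. The lowest of all, at a log2 ratio of -9.36, had no gene symbol. Mup5 (NM_203325) gave a liver signal of 316.5, 672, 1511.8 and 581.8 on the 4 arrays against 187086, 176807, 230440 and 170402 in the reference. Its log2 ratios were -6.58, -6.83, -6.91 and -7.49, a mean of -6.95 ± 0.38 (SD, n = 4; limma adjusted p = 3.1e-08), or 124-fold lower. Mup4l1 (NM_203512) was lowest of the transcripts with a symbol, with 111.5, 124.2, 216.2 and 149.8 in liver and 207784, 193958, 245744 and 206274 in the reference. It stood 627-fold lower (log2 -9.29 ± 0.70). Mup4l3 at -8.29 ± 0.67, Mup4l4 at -7.15 ± 0.36 and Mup4 at -6.48 ± 0.64. For each of these 5 genes the reference was at least 50.5-fold brighter on every array after normalization. Liver was still well above background on all 4 arrays, except for Mup4l3 (2 arrays). The 5 genes are near-copies of each other, so their probes may share signal and they are not 5 separate results. Another probe of Mup4 gave a log2 ratio of -3.79 and another probe of Mup5 one of -8.78. Rup2, a urinary protein encoded on another chromosome, stood at -8.87 ± 0.74, with 161, 204, 369.5 and 180 in liver and 222653, 225387, 270407 and 217048 in the reference.

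P450 enzymes of the adult male pattern were also among the lowest. Cyp2c11 (NM_019184), the most abundant P450 of adult male rat liver, gave 286.5, 456.8, 1162.8 and 446.8 in liver and 49500.8, 38680.8, 56690 and 37778.5 in the reference. That is 37.8-fold lower in liver (log2 -5.24 ± 0.34, SD, n = 4; adjusted p = 6.0e-08 by limma). Cyp2c13, a male P450 of the same cluster, gave 225.8, 330, 822.2 and 344.5 in liver and 43966.5, 34654.5, 47382.8 and 31784.5 in the reference, 44.1-fold lower (-5.46 ± 0.32). The channels did not come near each other on any array for either gene. Cyp4a2, a fatty acid hydroxylase, stood at -7.59 ± 0.78 and was well above background in liver on 2 arrays. The steroid hydroxylases Cyp2a2 and Cyp3a18 stood at -3.78 and -2.39. Cyp3a2, also a male P450 in adults, stood at 0.28 and Obp3, a Mup-like carrier, at -1.26. Of 14 measured genes of a list of adult male liver genes, 12 were called lower, with a median of -6.61 against -0.01 over all transcripts. This list was drawn up after the ratios were seen, so its count describes these arrays and supports nothing else.

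The low P450s were not all male ones. Cyp2c7 (NM_017158), a retinoic acid hydroxylase that adult females express more highly, gave 612, 1069.8, 3475 and 1006.5 in liver and 69290.5, 54994, 84309.2 and 54523 in the reference, 22.5-fold lower (-4.49 ± 0.38). Cyp3a9, also higher in adult females, was not well above background in liver on any of the 4 arrays and was at least 14.3-fold lower (adjusted p = 6.0e-06 by limma). Hao2, a hydroxyacid oxidase, stood at -3.48 ± 0.21. Of 11 measured genes of a list of female-biased liver genes, also chosen after the ratios were seen, 3 were called lower and 0 higher. Past 2-fold, 4 were lower and 2 higher, the latter Sult2a6 (1.46), a bile acid sulfotransferase, and Cyp17a1 (1.48), a steroid hydroxylase and lyase. Of all 51 P450s tested, 8 were called lower and 0 higher, with a median of -0.51. The enzymes that stood near the reference include Cyp1a2 (0.48), Cyp27a1 (0.27) of bile acid synthesis and Cyp2a1 (0.50). Cyp7a1, the rate-limiting enzyme of bile acid synthesis, had ratios of 0.87, 0.93, 0.61 and 0.42 (mean -0.14 with median centring), and Cyp2e1, the ethanol-oxidising P450, stood at 1.04.

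The promoters of a few of these genes are shown because the genes of 2 families were low together. Each is the stretch of 120 bases before the annotated start, 5′ to 3′ in the direction of the gene, from RefSeq on GRCr8, with TATAAA, the TATA box motif, in capitals.
Cyp2c11 (chr1:246175096-246175215, plus strand): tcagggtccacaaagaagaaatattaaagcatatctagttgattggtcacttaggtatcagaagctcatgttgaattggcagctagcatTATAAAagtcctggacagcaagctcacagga
Cyp2c13 (chr1:248787189-248787308, minus strand): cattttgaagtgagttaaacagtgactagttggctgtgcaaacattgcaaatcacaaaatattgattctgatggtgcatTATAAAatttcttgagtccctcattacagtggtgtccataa
Cyp2c7 (chr1:247966274-247966393, plus strand): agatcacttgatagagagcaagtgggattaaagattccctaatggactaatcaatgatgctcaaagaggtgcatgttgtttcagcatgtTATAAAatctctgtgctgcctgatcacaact
Mup4 (chr5:79759497-79759616, minus strand): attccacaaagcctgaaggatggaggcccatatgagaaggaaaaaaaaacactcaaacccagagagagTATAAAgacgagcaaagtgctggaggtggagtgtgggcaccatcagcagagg
Mup5 (chr5:79999696-79999815, minus strand): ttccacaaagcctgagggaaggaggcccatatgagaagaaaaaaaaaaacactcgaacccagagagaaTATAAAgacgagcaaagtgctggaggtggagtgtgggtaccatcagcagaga
The 3 Cyp2c genes lie on 1 chromosome and the 2 Mup genes on another. The longest stretch shared by Mup4 and Mup5 in these windows is 37 bases, and that of Cyp2c11 and Cyp2c13 is 11 bases. In the 250 bases before the start, read on both strands, TATAAA was found for 15 of the 43 called genes that matched the table (34.9%), for 6 of 31 genes higher past 2-fold (19.4%), for 7.85% of 7885 tested genes and for 13.1% of all 27457 promoters in the table. TTCNNNGAA, the motif of STAT5, through which growth hormone acts, was found for 6 of the 43 (14%), 0 of the 31, 6.42% of tested genes and 7.52% of all promoters. GGGCGG, the core of the Sp1 motif, was found for 6 of the 43 (14%), 15 of the 31 (48.4%), 56.3% of tested genes and 32.4% of all promoters. GTTAAT, the remaining motif searched, was found for 5 of the 43 (11.6%), 6 of the 31 (19.4%), 4.27% of tested genes and 6.46% of all promoters. The median number of CG pairs in the window was 2 for called genes, 7 for genes higher past 2-fold, 15 for tested genes and 6 for all promoters. A match is a run of letters and not a shown binding site, and related genes share promoter sequence.

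Steroid- and aldehyde-reducing enzymes formed another group. Hsd3b5 (NM_012584), a 3-ketosteroid reductase of adult male liver, gave 109.5, 118.5, 269.5 and 140 in liver and 42851.2, 27477.2, 46970.8 and 31774 in the reference, 107-fold lower (-6.75 ± 0.50, adjusted p = 6.6e-08 by limma). A second probe of the gene gave -3.64. Akr1c12, an aldo-keto reductase, stood at -5.40 ± 0.44, its relatives Akr1c1 and Akr1c2 at -4.36 and -4.23 (well above background in liver on 2 and 3 arrays), and the retinol and steroid dehydrogenase Hsd17b6 at -4.39 ± 0.38. The reference was far brighter than liver for each on all 4 arrays. Of 29 measured genes of this class, in a list chosen after the ratios were seen, 8 were called lower and 0 higher. Akr1b7 (1.35) and Akr1b8 (1.08) were higher past 2-fold, and Akr1d1, the 5-beta reductase of bile acid synthesis, stood at -0.43. Of 34 conjugation enzymes tested 2 were called lower, the sulfotransferases Sult1c3 (-3.01 ± 0.39) and Sult1b1 (-2.37 ± 0.44). The glucuronosyltransferase Ugt2b, outside this list, was called lower too (-5.27 ± 0.61). A second probe of Ugt2b gave -1.69, and the probes of this family may detect each other's transcripts. Glutathione transferase Gsta3 stood at -0.87, with a second probe at 0.92, so it has no settled direction.

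Hormones and lipid genes were also among the called. Hamp (NM_053469) encodes hepcidin, the hormone that limits iron uptake. It gave 353.7, 297.2, 873.2 and 333.7 in liver and 26436.6, 20584.9, 33583 and 20749.3 in the reference, 25.7-fold lower (-4.68 ± 0.69, adjusted p = 1.6e-06 by limma). The transferrin receptor Tfrc, which takes up iron, was 2.66-fold higher in liver (1.41 ± 0.19, adjusted p = 8.1e-06), with a second probe at 0.58. Ratios of Tfrc were 1.15, 1.43, 1.45 and 1.62. Of 16 genes of a list of iron handling, chosen after the ratios were seen, Hamp was the 1 called and Tfrc the 1 higher past 2-fold. Transferrin itself (Tf) stood at 0.78 and the iron exporter Slc40a1 at 0.42.

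Apoa2 (NM_013112), the second protein of high-density lipoprotein, gave 894.5, 1905.2, 6018.5 and 2137.8 in liver and 89370.5, 62958, 100800 and 67540 in the reference. It was 15.6-fold lower in liver (-3.96 ± 0.23, adjusted p = 6.0e-08 by limma). Its 18 fellow members in the apolipoprotein list were not called. Apoa1 and Apoc4 stood at 1.03 and 0.91, Apob and Apoe at -0.47 and 0.19, and Apoa4, which gut and liver make, at -1.503. The delta-9 desaturase Scd, which makes monounsaturated fatty acids, varied among arrays, with -3.82, -4.65, -2.68 and -4.49 (mean -3.91 ± 0.90). C 3 was the least low. Fatty acid synthase Fasn (-1.42) and the lipogenic regulator Thrsp (-1.83) were lower past 2-fold. The other 18 of 21 genes of fat synthesis tested, a list chosen after the ratios were seen, lay within 2-fold, and the list's median was -0.15. The clock output factor Dbp stood at -2.41 ± 0.34 and was the 1 called of 13 clock genes, a list chosen after the ratios were seen. The 3 probes of Dbp ranged from -2.41 to -1.92, so not all of them reached 4-fold. Bmal1 stood at 0.30 and Nr1d1 at -0.44. The hour at which livers were taken is not in the labels.

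**Figure D3:**
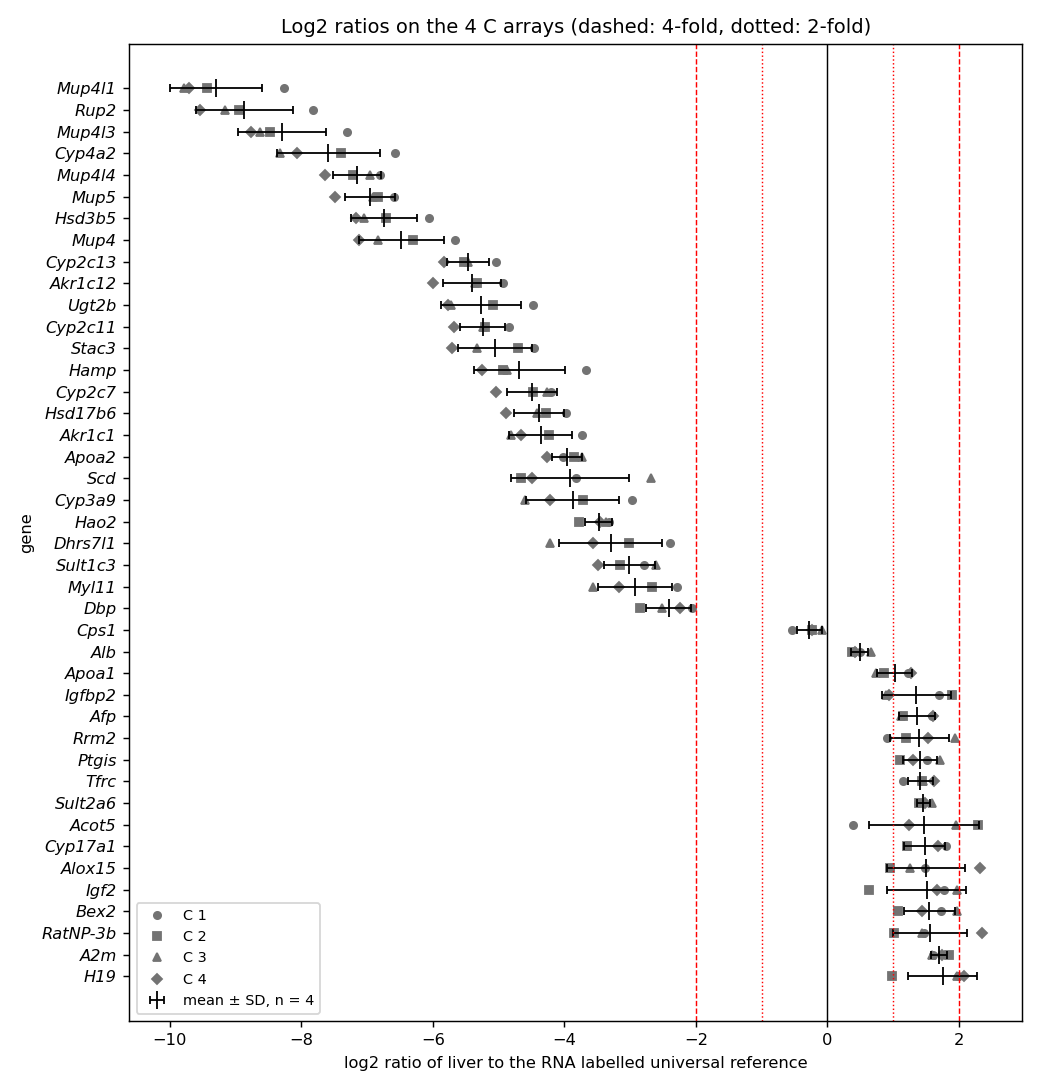
Log2 ratio of liver to the RNA labelled universal reference on each of the 4 C arrays (grey markers) with mean and SD (black) for 25 called genes, the 3 hepatocyte markers and 14 genes that are highest in liver. Dashed lines mark 4-fold and dotted lines 2-fold. The 25 called genes lie between -9.29 and -2.41, and no gene has a mean past the upper 4-fold line.

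Other called genes included skeletal muscle markers. Of 15 skeletal muscle genes tested, 4 were called lower and 11 lay past 2-fold lower, with a median of -1.76. The myosin heavy chain Myh8 (-3.17) and the actin Actg2 (-2.37), both outside this list, were called lower too. Myl11, a myosin light chain of fast muscle, gave 81, 94, 131 and 102.5 in liver against 1685.5, 1157, 1914.2 and 1269 in the reference (-2.92 ± 0.56). Tnnc2 and Tnni2, of the fast muscle troponin, stood at -2.86 and -2.49, and Ckm, muscle creatine kinase, at -2.03. The call of Ckm was lost without C 3 (-1.83), without C 4 (-1.95) and on slide 1 alone (-1.62), and in the limma fit over all 16 arrays with slide as a term neither the log2 ratio of Ckm (adjusted p = 0.0619) nor the log2 ratio of Tnni2 (adjusted p = 0.0571) was called. Of the 15, 14 were well above background in the reference on all 4 arrays and 2 in liver. Stac3, known from muscle excitation and contraction, stood at -5.05 ± 0.57. It did not follow the muscle markers on the 12 arrays of exposed pups, where its highest log2 ratio was -3.73 and that of Myl11 was 3.74. Among the remaining called genes with symbols were Cdh17 (-3.09, well above background in liver on 1 array), a cadherin of gut epithelium, the antibody transporter Pigr (-2.99), and Ubd (-2.66), a ubiquitin-like protein of inflammation. The zinc importer Slc39a4 stood at -2.04. Dhrs7l1, a short-chain dehydrogenase, was not above background in liver on any array and was at least 9.44-fold lower.

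In the other direction no transcript reached 4-fold, and the 65 that were higher past 2-fold are given as the highest measured. H19 (NR_027324), an imprinted RNA of fetal tissues, stood highest of all. It gave 37148, 42858.8, 184086 and 112986 in liver and 62301.5, 50023.5, 56763.2 and 43756.8 in the reference, with log2 ratios of 1.99, 0.98, 1.97 and 2.08. C 2 was the lowest of the 4. The mean was 1.75 ± 0.52 (SD, n = 4, 3.37-fold, adjusted p = 1.3e-04 by limma), and 2.01 without C 2, past the 4-fold limit. The reference was itself bright at the H19 probe. Igf2, a fetal growth factor and the imprinted neighbour of H19, gave 1.78, 0.63, 1.97 and 1.67 (mean 1.51 ± 0.60), again with C 2 lowest. Afp, the fetal counterpart of albumin, gave 24495.5, 31911.5, 95182.2 and 64971.8 in liver and 53086, 33332.8, 53754 and 35450.8 in the reference (1.36 ± 0.27). Igfbp2, a binding protein of insulin-like growth factors that is high before birth, stood at 1.35 ± 0.52, with a second probe at 0.89. Of 11 fetal and perinatal genes on the array, 4 stood above background in neither channel on any C array. Of the 7 tested, 3 were higher past 2-fold and 0 lower, with a median of 0.80. Gpc3, a glypican of fetal liver, stood at -0.03 and was well above background in liver on 2 arrays. Of 12 genes tested of the growth hormone and insulin-like growth factor axis, Igfbp2 was the 1 past 2-fold, and the median was -0.18, or 0.22 where both channels had to stand above background on all 4 arrays. The growth factor Igf1 stood at -0.89 and its carrier Igfals at -0.99, the growth hormone receptor Ghr at -0.68, and the prolactin receptor Prlr at 0.46.

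Of 35 cell cycle genes tested, 3 were higher past 2-fold and 0 lower, with a median of 0.48. Rrm2, a subunit of the enzyme that makes DNA precursors, stood at 0.91, 1.20, 1.95 and 1.54 (mean 1.40 ± 0.45), with a second probe at 0.31. The mitotic kinase Cdk1 stood at 1.08 and its cyclin Ccna2 at 1.06. Ccnd1, the cyclin of the first growth phase, stood at -0.72. With median centring the list's median was 0.24, where that of all transcripts was -0.42.

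Some blood cell transcripts were higher past 2-fold. Of 9 red cell genes tested, 2 were higher past 2-fold, with a list median of 0.77. They were Ahsp, the chaperone of alpha globin (1.13 ± 0.31), and Alas2, the first enzyme of haem synthesis in red cells (1.02). A second probe of Ahsp gave 0.94. The globins Hba-a1 (0.94) and Hbb (0.60) lay on the same side, and Gypc, a membrane protein of red cells, at -0.68, was well above background in liver on 1 array. The 12 lymphocyte and granulocyte markers tested had a median of 0.14, with 0 past 2-fold. RatNP-3b, an alpha-defensin of neutrophils, stood at 1.46, 1.01, 1.44 and 2.35 (mean 1.56 ± 0.56), with Defa5 at 1.19 and Np4 at 1.12. A list of defensins and granule proteins, chosen after the ratios were seen, had 18 genes on the array. Of these, 10 stood above background in neither channel on any C array. Of the 7 tested, 3 were higher past 2-fold, against 0.436% of all transcripts, and the median was 0.97. Defensin copies are alike in sequence, so these probes may share signal. In bulk liver, more cells of a type and more RNA per cell cannot be told apart.

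Of 18 matrix genes tested, 1 was higher past 2-fold and 0 were called. Col1a1, a chain of type I collagen, stood at 1.02 ± 0.29, with a second probe at 0.67. Sparc, which binds collagen, stood at 0.80. The list's median was 0.34, or -0.16 with median centring, so it has no settled direction. A2m, a protease inhibitor that rats make before birth and in the acute phase, stood at 1.61, 1.85, 1.59 and 1.74 (mean 1.70 ± 0.12). It and Sult2a6 (1.46 ± 0.10) varied least among arrays of the 12 highest with a symbol. The remaining genes among these 12 were Bex2 (1.55), Alox15 (1.502), a lipoxygenase, Acot5 (1.47), a peroxisomal thioesterase, Cyp17a1 (1.48) and the prostacyclin synthase Ptgis (1.41). Acot5 varied from 0.39 on C 1 to 2.28 on C 2. Markers of Kupffer cells, the resident macrophages, had a median of 0.14 and those of sinusoidal endothelium 0.24, or -0.64 and -0.23 with median centring, with no member past 2-fold in either list.

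**Figure D4:**
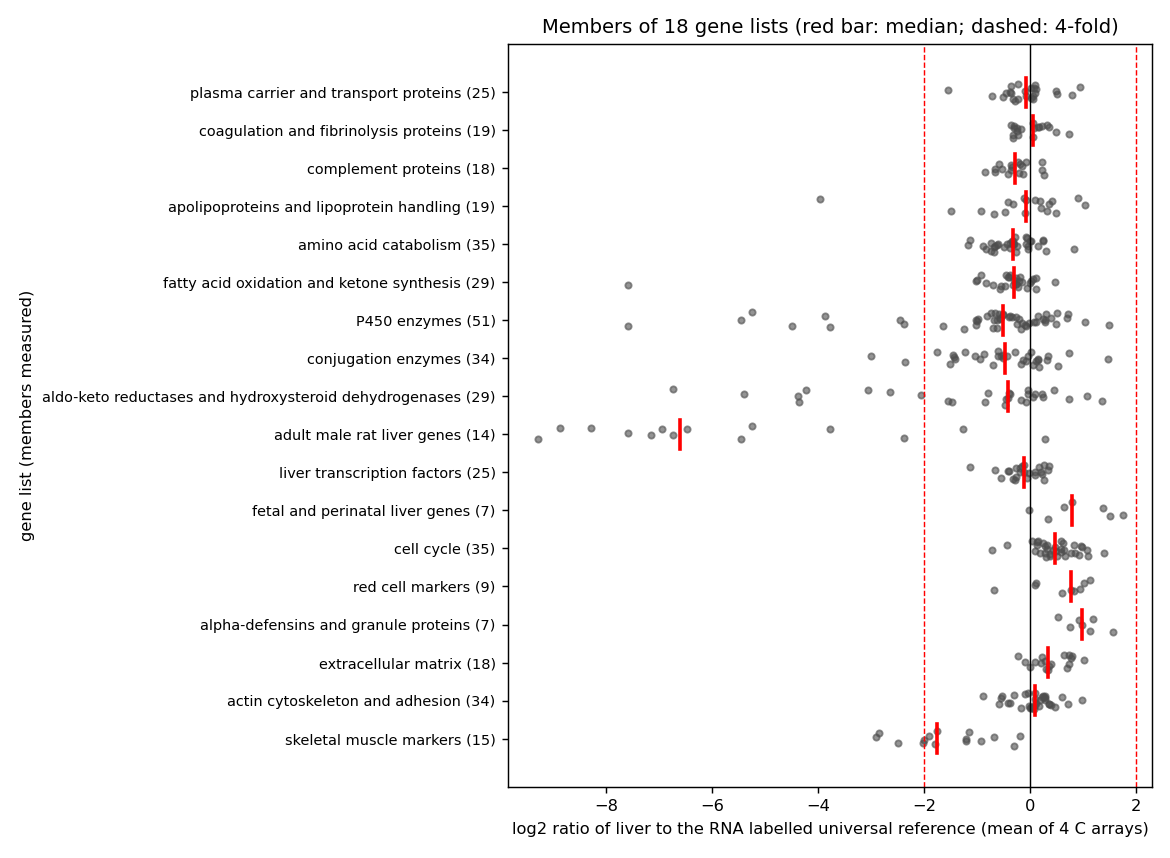
Log2 ratio of liver to the RNA labelled universal reference (mean of the 4 C arrays) for the measured members of 18 gene lists, number in brackets. Each dot is 1 gene, red bars are list medians, dashed lines mark 4-fold. Most hepatocyte lists sit around 0, the adult male list has a median of -6.61, and fetal, red cell and defensin lists have medians of 0.80, 0.77 and 0.97.

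Most genes of core hepatocyte functions lay within 2-fold of the reference, as did 14540 of all 14913 transcripts tested. In the 4 lists of secreted proteins (plasma carriers, coagulation, complement, apolipoproteins) 77 of 81 genes lay within 2-fold and Apoa2 was the 1 called. Orm1, an acute phase glycoprotein, stood at -1.55 ± 0.50, C9 of the complement lytic pore at -0.85 and the kininogen Kng1 at 0.73 (-0.20 with median centring). The 6 urea cycle genes tested lay between -0.52 (Ass1) and 0.10. Of 35 genes of amino acid breakdown 33 were within 2-fold, with alanine transaminase Gpt (-1.17) and histidase Hal (-1.14) below. Of 25 liver transcription factors 24 were within 2-fold, among them Hnf4a (-0.32), and the bile acid sensor partner Nr0b2 stood at -1.13. Pck1, the control point of glucose synthesis, stood at -1.54 ± 0.59 and the efflux pump Abcc2 at -1.54 ± 0.13.

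Enzymes with a liver form and a form of other tissues gave the same picture. Both forms were measured for 24 of 28 pairs, and 40 of the 44 distinct forms lay within 2-fold. Liver pyruvate kinase Pklr stood at -0.93 and Pkm at 0.07. The forms past 2-fold were Pck1, G6pc1 (-1.04), the muscle and liver carbonic anhydrase Car3 (-1.66) and the keratin Krt18 (-1.04), all on the low side.

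The 12 arrays of exposed pups, which the fit did not use, carry other livers against the same reference. As they share it with the C arrays, the values below are a description. Of the 114 called transcripts 107 were lower on all 12 arrays and 33 stayed past 4-fold on all 12. Of the 65 higher past 2-fold, 58 were higher on all 12. The exceptions with symbols include the muscle genes. Myl11 stood at 3.74 on 0.5M 4 and 3.70 on M 2 and between -3.41 and -1.73 on the other 10 arrays, and Ckm at 3.52 and 3.13 on the same 2. Without these 2 arrays, left out after seeing the data, 113 of the 114 were lower on all 10, 33 past 4-fold on all 10, and 58 of the 65 higher on all 10. Group means of Myl11 were -1.14 in 0.5M, -1.18 in M and -2.82 in AhR. By the moderated F-test of limma over the 4 groups, 22 of 14913 transcripts differed (0.148%), among them 1 of the 114 and 2 of the 65.

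The 1 of the 114 was Cyp2c7. Its mean log2 ratio was -4.49 in C, -4.18 in 0.5M, -2.58 in M and -4.44 in AhR (adjusted p = 3.6e-04), so it was low in all groups and least so in M. The 2 of the 65 were A2m (1.70 in C, 1.39 in 0.5M, 0.66 in M, 1.89 in AhR; adjusted p = 0.0119) and Cyp17a1 (1.48, 0.98, 0.63 and 1.45; adjusted p = 0.0201). Cyp1a1, the P450 that aryl hydrocarbon receptor agonists induce, stood at -1.65 ± 0.39 in C, with liver signals of 117, 115.2, 319.3 and 136.3 against 1045.1, 755, 1357.8 and 749.9 in the reference. It stood above the reference in the other groups. Cyp2b2, a P450 that phenobarbital induces, stood at -0.57 ± 0.15 in C. Mup5 and Cyp2c11 kept near the same ratio in all groups, with means of -6.95, -7.05, -6.93 and -6.87 and of -5.24, -5.55, -5.43 and -5.31 in C, 0.5M, M and AhR.

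**Figure D5:**
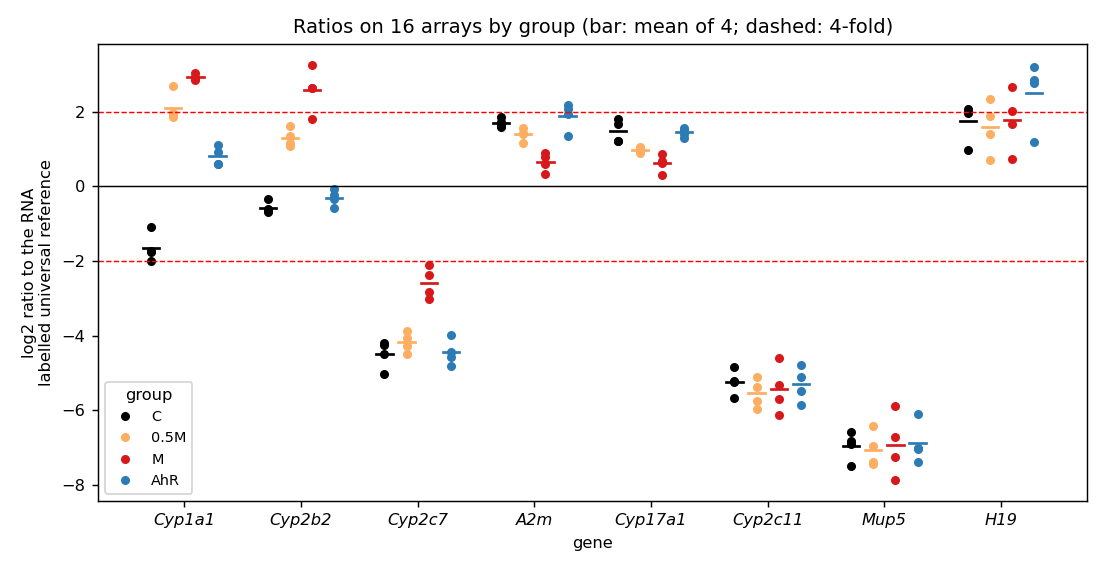
Log2 ratio to the RNA labelled universal reference of 8 genes on each of the 16 arrays, by group (C, 0.5M, M, AhR), with the mean of 4 as a bar and 4-fold as dashed lines. Cyp2c11 and Mup5 are low in every group, Cyp2c7 is least low in M, and Cyp1a1 is below 0 in C alone.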

How the data were processed

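The deposited scan files, 1 per array, came from Agilent Feature Extraction 10.7.3.1 per the file headers, and hold median spot and background intensity of both channels, quality marks of the unit other (0 or 1), and a LogRatio on the log10 scale. The authors also deposited a table of log2 ratios, used as an alternative. Its column medians on the 4 C arrays were 0.0039, 0.0112, 0.0122 and 0.0108 and its centring is not given in the sources used here. It correlated at 0.9885 to 0.9962 with the ratios computed here on the same arrays, in the same direction.

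Intensities were corrected with normexp (offset 50, which shrinks ratios of dim spots) and loess within arrays by limma 3.58.1 in R 4.3.3, with control spots given no weight and outlier spots left out. The spots of a probe were averaged. Transcripts entered where well above background in either channel on at least 3 of the 4 C arrays, by the brightest probe of a gene. That left 9108 measured in both channels on all 4 arrays, 4770 in part, 1035 in the reference alone and 0 in liver alone. Of 30367 probes 18004 had a symbol through RefSeq. Ratios were tested against 0 (lmFit, eBayes, two-sided, Benjamini-Hochberg over all 14913). "At least N-fold" compares Aquantile-scaled channels, with the dim one at the lowest signal above background. Groups were compared on all 16 arrays with slide as a term. The fit was tested on simulated data. Depth for arrays is signal over background, and the number of arrays limits precision.

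Members, lists and tests were chosen with earlier results of these data known, and 7 lists after these ratios were seen. Named genes were the 12 lowest called above background in both channels, bounds, up to 4 called per list or else its largest ratio, both forms of pairs, and, as none was called higher, the 12 highest with a symbol past 2-fold. In lists of other cell types and tissues, members much brighter on a single C array were named too. Genes named beside them as list members were chosen after their values were seen. The values of some list members are not reported here.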

Additional observations from a re-analysis of the deposited data

Results flagged for a closer look

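Across the 4 groups the log2 ratio differed by limma's moderated F-test for Cyp1a1 (adjusted p = 9.5e-09, means -1.65 in C, 2.10 in 0.5M, 2.93 in M and 0.81 in AhR), Cyp2b2 (adjusted p = 5.2e-06, means -0.57, 1.30, 2.59 and -0.30), Cyp2c7 (adjusted p = 3.6e-04), A2m (adjusted p = 0.0119) and Cyp17a1 (adjusted p = 0.0201).

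Among 118 named genes, 8 had 1 C array far from the other 3. Chance alone marks about 1 in 20 groups, but the 8 cannot be set against that rate. Fabp4 and Ucp1 were named because 1 array was brighter than the other 3, so their marks follow from that choice. The gap to the nearest array divided by the range was 0.980 for Fabp4, 0.890 for Ucp1 and 0.830 for Cpt1b, a carnitine transferase of muscle and brown fat, each with C 2 highest. It was 0.898 for H19 (C 2 lowest), 0.843 for Hk1 (C 1 lowest, 0.08 against 0.39 to 0.45), 0.909 for Pfkl (C 4 highest, 0.49), 0.866 for Mat1a (C 1 highest, 0.50) and 0.844 for G6pc3 (C 3 lowest, -0.23).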

How the results depend on the processing

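Against 114 lower and 0 higher transcripts, the number lower was 185 with a normexp offset of 1, 224 with median centring, 256 with the scanner software's ratio, 43 at 8-fold and 307 at 2-fold. The number higher was 1 with offset 1 (RatNP-3b), 5 with the scanner software's ratio, 65 at 2-fold, 1 on slide 2 alone (H19) and 5 by a test against 2-fold (treat). Leaving out 1 array gave 106 to 121 lower and 0 to 1 higher. Slide 1 (C 1 and C 2) alone gave 92 lower and slide 2 (C 3 and C 4) 134. The authors' deposited table gave 102 and 0. All 114 stayed below 0 under every setting in which they had a value, and 94 had one when both channels had to stand above background on all 4 arrays. Of 118 named genes 33 changed sign under at least 1 setting, 22 of them with median centring, among them Alb (-0.43), and 0 of those past 2-fold did. Of 39 list medians 16 changed sign, 9 with median centring, none of them more than 0.34 from 0 as reported. Array weights, chosen after seeing the data, gave 114 and 0. Same-numbered arrays of the 4 groups also lay on the same slide, and the labels tie them to no common animal or litter. Their deviations correlated at -0.30 to 0.45, 15 of 24 pairs over 0.1, and 8 of 16 arrays correlated best with their own number. With the replicate number as a block over all 16 arrays 112 were lower and 0 higher. Ckm lost its call on slide 1 alone (-1.62), without C 3 (-1.83) or C 4 (-1.95), and in fits over all 16 arrays, where the log2 ratio of Tnni2 lost its call too (limma adjusted p = 0.0571 and 0.0585). Dim liver signal, most so on C 1, limits how low a ratio can be measured.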

Other observations

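Some called genes fall outside the groups described above. Nlrp12, a sensor protein of immune cells, stood at -2.90 ± 0.31 (SD, n = 4), Cavin3, a coat protein of membrane pits, at -2.83, and Mettl7b, an alkyl thiol methyltransferase well above background in liver on 2 arrays, at -3.003. The amino acid conjugase Acnat2 stood at -2.58 and Akr7a3, which reduces aflatoxin aldehydes, at -2.64. Lbp, which binds bacterial lipopolysaccharide, stood at 1.32 and Aqp7, a glycerol channel, at 1.28. Without a gene symbol were 61 of the 114 called transcripts.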
